A study of Mus musculus with 51 samples.

Results

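The genes described here are 10 regulators of the step from G1 into S phase, of 24538 genes in the RNA-seq tables. They were taken by gene symbol: the D-type cyclins *Ccnd1*, *Ccnd2* and *Ccnd3*, the E-type cyclins *Ccne1* and *Ccne2*, the Cip/Kip inhibitors *Cdkn1a* and *Cdkn1b*, and the Ink4 inhibitors *Cdkn2a*, *Cdkn2b* and *Cdkn2c*. All 10 symbols were found in each of the 9 tables. The rule uses names only, although the set was proposed with earlier results of these data known.

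RNA had been sequenced from mouse embryonic stem (ES) cells and from cells differentiated toward cardiac mesoderm in 20 ng/ml Bmp4, with 18 RNA samples among the 51 of the study. The labels give 2 samples each for F1G4 WT cells as ES cells and after 1, 2 and 3 days. They give 1 sample per day for the *Eomes* KO, the *T* KO and the *Eomes*/*T* double KO (dKO) line, taken after 2 and 3 days, and for the *Smad4* KO line and its WT counterpart, taken after 1 and 2 days. Each condition is a single FPKM column (fragments scaled to transcript length and to the size of the library), so no spread between replicates could be computed. The sequencing depth is unknown.

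The *Eomes* KO and *T* KO lines are clones of F1G4 cells that lack the promoter and first exon of the gene, and the dKO line was derived from *Eomes* KO cells. The *Smad4* KO line comes from cells of a 129S/SvEvxC57BL/6 background with a floxed first exon, excised by transient Cre, and the WT cells of this line keep the conditional alleles. All lines were expanded on embryonic fibroblast feeders that were removed before differentiation, and every differentiated condition, control or KO, received Bmp4. FPKM of *Eomes* fell in *Eomes* KO cells from 9.42 to 2.42 on day 2 and from 20.3 to 0.276 on day 3, and in dKO cells to 1.24 and 0.346. FPKM of *T* fell in *T* KO cells from 44.8 to 6.64 on day 2 and from 323 to 3.00 on day 3, and in dKO cells to 2.77 and 1.93. *Smad4* stood at 39.4 in KO beside 33.8 in WT cells on day 1, and on day 2 these values were 46.8 and 39.3. This value sums reads over the whole gene, and the exons left in place can still give reads, so it does not check the loss of the first exon.

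D-type cyclins bind Cdk4 and Cdk6 and start the phosphorylation of the retinoblastoma protein, and E-type cyclins bind Cdk2 and complete it, which frees E2F factors to switch on the genes of DNA replication. Ink4 proteins bind Cdk4 and Cdk6 and keep D-type cyclins off, whereas the Cip/Kip proteins *Cdkn1a* (p21) and *Cdkn1b* (p27) bind cyclin-Cdk complexes and block mainly Cdk2. Mouse ES cells are known for a short G1 phase, abundant cyclin E and low levels of most Cdk inhibitors, and G1 lengthens as they differentiate.

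As a rule for calls, a gene was examined where its FPKM was above 1 in either column of a comparison, and counted as changed where the log2 ratio, taken within a table and without a pseudocount, was above 1 or below −1. This is a 2-fold rule, not a test. As a yardstick, F1G4 WT cells were compared with the WT cells of the *Smad4* line after both were given the same median, and differed past 2-fold at 11.2% of examined genes on day 1 and at 5.09% on day 2. Over all examined genes the log2 ratios of KO to WT had a robust SD of 0.622 for the *Eomes* KO line on day 3 and of 0.620 for the *T* KO line on day 2, against 0.258 to 0.496 in the other 6 KO comparisons. These 2 columns stand apart from the rest. This limit holds for every value from them below, also where it is not repeated. In this bulk RNA, a smaller number of expressing cells and less RNA per cell cannot be told apart.

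In WT cells, differentiation brought a large decrease of *Ccne1* and increases of *Ccnd2*, *Cdkn1a* and *Cdkn2b*. Between ES cells and day 3, 4 of 9 examined members passed the 2-fold rule, beside 31.1% of all examined genes (18.5% higher, 12.6% lower). The 3 higher members were *Ccnd2* (log2 ratio 2.97), *Cdkn1a* (2.38) and *Cdkn2b* (1.88), and the lower member was *Ccne1* (−2.17). From ES cells to day 1, 3 of 9 examined members passed (13.5% of all examined genes), from day 1 to day 2, 2 of 9 (11.3%), and from day 2 to day 3, 1 of 9 (10.2%).

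**Figure D1:**
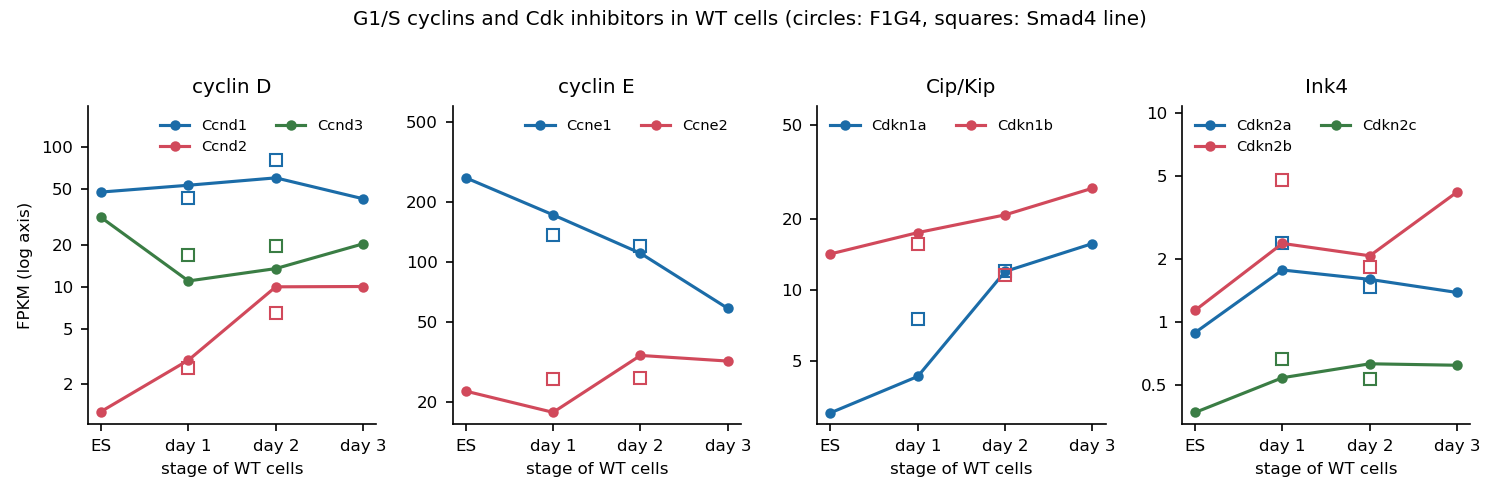
FPKM (log axis) of the 10 genes in WT cells by stage, 1 panel per family, with circles and lines for F1G4 cells and open squares for the WT counterpart of the *Smad4* KO line (days 1 and 2). Each point is a single pooled column: *Ccne1* descends at every step from 264 to 58.8, while *Ccnd2* climbs from 1.28 to 10.0 and *Cdkn1a* from 3.02 to 15.7.

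*Ccnd1* was the D-type cyclin of highest FPKM in all 14 conditions. In F1G4 WT cells its FPKM began at 47.6 in ES cells and was then 53.3 (day 1), 60.2 (day 2) and 42.6 (day 3), and no step passed the 2-fold rule. *Ccnd2* was nearly silent in ES cells at 1.28, then reached 2.98 (day 1), 9.98 (day 2) and 10.0 (day 3), with log2 ratios of 1.22 from ES cells to day 1 and 1.74 from day 1 to day 2. *Ccnd3* took the opposite course at first. Its FPKM fell from 31.3 in ES cells to 11.0 on day 1 (log2 ratio −1.51) and then stood at 13.5 and 20.3 on days 2 and 3.

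The summed FPKM of the D-type cyclins ran only from 67.3 to 83.7 over the 4 WT stages, while its composition shifted. *Ccnd3* made up 39.0% of the sum in ES cells, then 16.3% (day 1) and 27.8% (day 3). *Ccnd2* made up 1.59% in ES cells and 13.8% on day 3. In the WT cells of the *Smad4* line *Ccnd2* was likewise the least abundant D-type cyclin, at 2.63 on day 1 and 6.48 on day 2, and *Ccnd3* stood at 16.9 and 19.7, above the F1G4 values by 0.67 and 0.56 on the log2 scale after scaling.

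**Figure D2:**
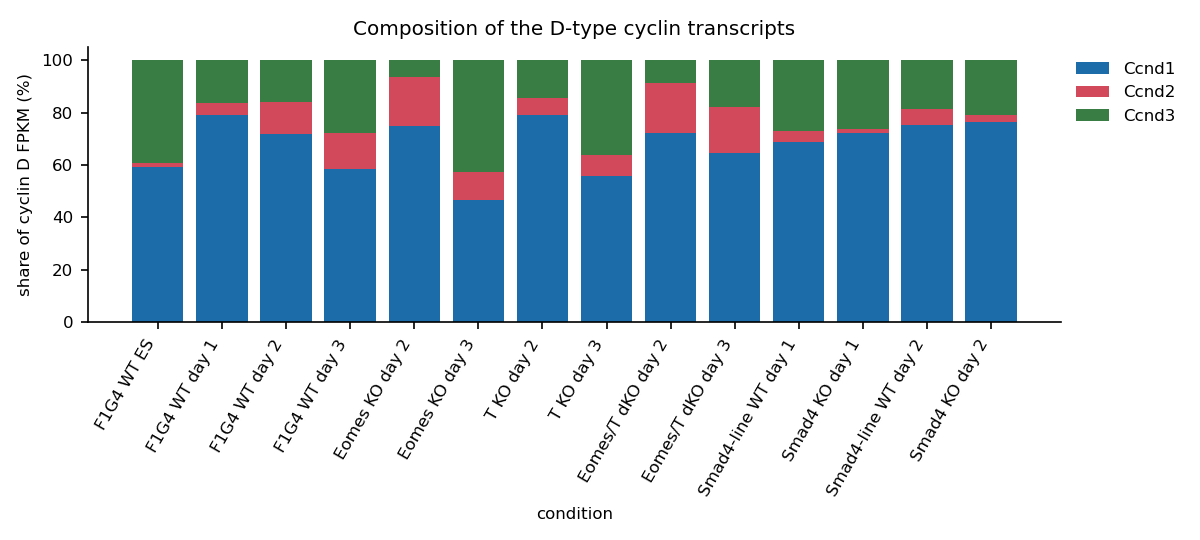
Share (%) of *Ccnd1*, *Ccnd2* and *Ccnd3* in their summed FPKM, as stacked bars from 0 for the 14 conditions, 1 pooled column each. The *Ccnd3* share is lowest in *Eomes* KO cells on day 2 (6.39%) and highest in the same line on day 3 (42.7%), and the *Ccnd2* share is below 3% in ES cells and in both *Smad4* KO columns.

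The D-type cyclins that moved in KO cells were *Ccnd2* and *Ccnd3*. *Smad4* KO cells had 2 of 10 examined members past the 2-fold rule on day 1, beside 4.77% of all examined genes (2.41% lower), and 1 of 9 on day 2, beside 5.77% (3.21% lower). *Ccnd2* was the member lower on both days. On day 1 *Smad4* KO cells had an FPKM of 0.979 for it, beside 2.63 in WT (log2 ratio −1.42), and on day 2 one of 2.78 beside 6.48 (−1.22). Of all examined genes, 1.21% had a ratio as low or lower on day 1 and 2.48% on day 2. With a pseudocount of 1 the ratios were −0.87 and −0.98 and no longer passed. *Ccnd2* still increased from day 1 to day 2 in *Smad4* KO cells, by 1.51 on the log2 scale beside 1.30 in WT cells of the line. *Ccnd1* and *Ccnd3* stayed within 0.11 of WT on the log2 scale on both days. In the same cells the summed FPKM of 6 neural markers was 32.1 against 15.8 in WT on day 1 and 81.6 against 31.3 on day 2. Of these markers, 2 of 4 examined were higher on day 1 and 3 of 4 on day 2. In WT cells of the line 1 of the 6 was above FPKM 1 on day 2. The summed FPKM of 7 nascent mesoderm markers, *Eomes* and *T* among them, was 3.20 against 14.4 and 4.09 against 90.3. Whether this difference in cell type bears on *Ccnd2* was not tested.

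In the F1G4 lines the direction of *Ccnd2* differed between KO lines. The 3 lines share the F1G4 WT columns of each day, so their ratios are not independent. On day 2 FPKM of *Ccnd2* was 18.7 in *Eomes* KO, 17.6 in dKO and 5.76 in *T* KO cells, beside 9.98 in WT (log2 ratios 0.92, 0.83 and −0.84). On day 3 it was 6.06, 14.9 and 5.18 in these lines, beside 10.0 in WT (−0.79, 0.52 and −0.97). None of these 6 ratios passed the 2-fold rule, and those of *T* KO on day 2 and *Eomes* KO on day 3 rest on columns that stand apart. After removal of the trends of the log2 ratios with GC content and transcript length, *Ccnd2* passed it as higher on day 2 in *Eomes* KO (1.02) and dKO cells (1.13). *Ccnd2* has the longest transcript of the 10 genes, with 6330 bases, and on day 2 the genes with the longest transcripts, the top of 4 equal groups, had a median ratio 0.58 below that of the shortest in the dKO column.

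*Ccnd3* was the only member past the 2-fold rule in *Eomes* KO cells on day 2, 1 of 9 examined, beside 7.52% of all examined genes (4.17% lower). Its FPKM was 6.35 in KO and 13.5 in WT cells (log2 ratio −1.07, with 3.63% of examined genes as low or lower), and it was 8.03 in dKO (−0.73) and 12.7 in *T* KO cells (−0.13). With a pseudocount of 1 the ratio in *Eomes* KO cells was −0.97 and no longer passed. In this column the nascent mesoderm markers, which include the deleted *Eomes*, summed to 44.9 beside 87.8 in WT. The neural markers summed to 39.6 beside 27.4, with 3 of 4 examined higher. *Nes* gave 26.3 of the WT sum, while *Pax6* was at 4.54 beside 0.100 in WT and *Sox1* at 7.17 beside 0.200. The part of both marker lists in the result was not tested. On day 3 *Ccnd3* stood at 23.8, 15.4 and 24.0 in *Eomes* KO, dKO and *T* KO cells beside 20.3 in WT, and every ratio was within 0.46 of 0. *Eomes* KO cells therefore combined the lowest *Ccnd3* value of all conditions with the highest *Ccnd2* value on day 2, and neither extreme was seen in the same line on day 3, which is one of the columns that stand apart. *Ccnd1* stood at 26.0 in that column (log2 ratio −0.77), its lowest value, and between 36.9 and 80.3 in all other conditions.

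The E-type cyclins behaved differently from each other. *Ccne1*, the more abundant in every condition, had an FPKM of 264 in WT ES cells and of 172, 111 and 58.8 after 1, 2 and 3 days. Each step was below 2-fold (log2 ratios −0.62, −0.64 and −0.92), and over the whole course it passed the rule. *Ccne2* stood at 22.7, 17.8, 34.2 and 32.0, so that *Ccne1* was 11.65 times as high in ES cells and 1.83 times on day 3. In WT cells of the *Smad4* line *Ccne1* was at 137 (day 1) and 120 (day 2), and *Ccne2* at 26.0 and 26.2.

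No E-type cyclin passed the 2-fold rule in any of the 8 KO comparisons. *Ccne1* ratios lay between −0.43 in *T* KO cells on day 2 and 0.34 in dKO cells on day 3, and *Ccne2* ratios between −0.58 in *Smad4* KO cells on day 2 and 0.41 in dKO cells on day 2. *Ccne1* was at 77.6 in dKO cells on day 3, and at 58.8, 53.3 and 48.2 in WT, *Eomes* KO and *T* KO cells of that day. In each of these lines it was lower on day 3 than on day 2, by 0.92 (WT), 1.02 (*Eomes* KO), 0.78 (*T* KO) and 0.55 (dKO) on the log2 scale.

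The 100 bases from 150 to 51 bases before the annotated start of *Ccne1* are shown, an upstream part of its GC-rich promoter window (76% G and C). They hold 2 of the 4 GC boxes (GGGCGG, searched on both strands) of its window, in capitals. The sequence is from RefSeq, build GRCm38.p6, minus strand, chr7:38107541-38107640, has 85% G and C, and reads 5′ to 3′.
Ccne1: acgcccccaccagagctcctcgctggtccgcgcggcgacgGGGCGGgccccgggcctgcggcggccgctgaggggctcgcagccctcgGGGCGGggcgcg
A GC box was found in 35.7% of 32851 mouse promoter windows (250 bases before and 50 from the start), so its presence is common. No E2F motif written as TTTNNCGC was found in the *Ccne1* window, which says only that these letters are not there. Promoter windows were found for 7 of the 10 members, and not for *Ccnd1*, *Ccnd2* and *Ccne2*.

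Of the Cip/Kip inhibitors, *Cdkn1a* increased past the 2-fold rule during WT differentiation and *Cdkn1b* did not. FPKM of *Cdkn1a*, a well-known target of p53, began at 3.02 in ES cells and reached 4.31, 12.0 and 15.7 after 1, 2 and 3 days, with the largest step from day 1 to day 2 (log2 ratio 1.47). *Cdkn1b* stood at 14.2, 17.5, 20.8 and 26.9, which is 0.92 higher on day 3 than in ES cells and under 2-fold. *Cdkn1a* accounted for 17.6% of their summed FPKM in ES cells and 36.9% on day 3. In WT cells of the *Smad4* line *Cdkn1a* was at 7.51 (day 1) and 12.0 (day 2), and *Cdkn1b* at 15.6 and 11.6. On day 2 *Cdkn1b* was thus 0.83 lower on the log2 scale than in F1G4 cells after scaling, a difference between WT lines as large as several of the KO ratios below.

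*Cdkn1a* has 2 annotated starts, and a stretch beside each is shown (RefSeq, GRCm38.p6, chromosome 17, plus strand). The p53 sites near this gene are its best known control, and T-box factors are what the *Eomes* KO, *T* KO and dKO lines lack. The first stretch runs from 60 to 31 bases before the upstream start, chr17:29090919-29090948, with a p53 response element in capitals. The second stretch runs from 2 to 31 bases after the downstream start, chr17:29093771-29093800, with a T-box half-site in capitals.
Cdkn1a upstream start: ggccttcagGAACATGTCTTGACATGTTCa
Cdkn1a downstream start: cagcagccgagAGGTGTGAgccgccgcggt
The p53 consensus of 20 bases was searched with at most 1 mismatch outside the C and G of each core, an allowance made after the sequence was seen. With it, 22 of 32851 promoter windows (0.0670%) held a match, and the element of *Cdkn1a* has 1 mismatch. The T-box half-site AGGTGTGA, searched on both strands, was in 1.28% of windows. Binding of a factor at these sites was not measured here.

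In KO cells *Cdkn1a* passed the 2-fold rule in 2 comparisons, as lower, and each of them involves a column that stands apart. In *Eomes* KO cells on day 3 it was the only one of 10 examined members past the rule, beside 16.4% of all examined genes (9.01% lower). Its FPKM was 6.57 there and 15.7 in WT (log2 ratio −1.32, with 5.33% of examined genes as low or lower). In *T* KO cells on day 2 it was the only one of 9, beside 15.6% of all examined genes (9.93% lower), with an FPKM of 4.56 against 12.0 in WT (−1.44, with 4.86% as low or lower). With the GC content and length trends removed the ratios were −1.24 and −1.35, past the rule as before. Nascent mesoderm markers, *Eomes* and *T* among them, summed to 9.08 beside 446 in the first comparison, with 7 of 7 lower. In the second they summed to 64.7 beside 87.8, and the deleted *T* itself had a log2 ratio of −2.75. Of 6 examined there, 3 were lower and 2 higher, the latter *Eomes* (1.33) and *Evx1* (1.06). The part of these markers in the *Cdkn1a* values was not tested.

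In the other columns of the same lines *Cdkn1a* was near WT. It stood at 10.9 in *Eomes* KO cells on day 2 (log2 ratio −0.12) and at 15.7 in *T* KO cells on day 3 (−0.01). In dKO cells, which lack both factors, it was 9.56 on day 2 (−0.31) and 15.7 on day 3 (−0.06). From day 2 to day 3 *Cdkn1a* hence moved by 1.82 in *T* KO, −0.81 in *Eomes* KO, 0.64 in dKO and 0.39 in WT cells on the log2 scale, and the outer values each rest on a column that stands apart. In *Smad4* KO cells it was at 6.49 on day 1 and 9.33 on day 2 (−0.21 and −0.37).

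**Figure D3:**
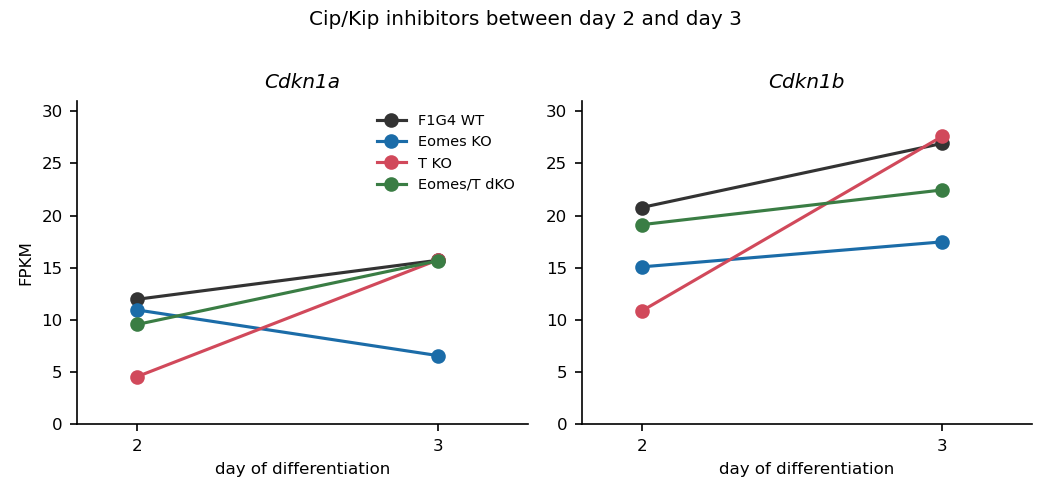
FPKM (linear axis from 0) of *Cdkn1a* and *Cdkn1b* on days 2 and 3 in F1G4 WT cells and in the *Eomes*/*T* dKO, *T* KO and *Eomes* KO lines, 1 pooled column per point. *Cdkn1a* meets at 15.7 on day 3 in WT, *T* KO and dKO cells, and *Eomes* KO cells stand alone at 6.57, while *T* KO cells are lowest for both genes on day 2.

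*Cdkn1b* did not pass the 2-fold rule in any KO comparison. It was 10.8 in *T* KO cells on day 2 against 20.8 in WT (log2 ratio −0.98), just short of the rule. This column stands apart, and 10.2% of examined genes were as low or lower. On day 3 *Cdkn1b* was at 27.6 in *T* KO cells (0.02). In *Eomes* KO cells it stood at 15.1 and 17.5 on days 2 and 3 (−0.45 and −0.69), and in dKO cells at 19.1 and 22.5 (−0.11 and −0.32). *Smad4* KO cells had the opposite sign, with 20.3 on day 1 (0.37) and 18.2 on day 2 (0.65) beside 15.6 and 11.6 in WT.

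Other transcripts in these 2 columns give the setting of the *Cdkn1a* values. Of 20 genes of G2 and mitosis, 2 were lower and 2 higher in *Eomes* KO cells on day 3, and 3 were lower in *T* KO cells on day 2. These shares are near the 16.4% and 15.6% of all examined genes past the rule in the same columns. The higher pair in *Eomes* KO cells was *Mki67* (log2 ratio 1.13), which encodes the Ki-67 proliferation antigen, and *Ube2c* (1.02), a ubiquitin-conjugating enzyme of mitotic exit. *Aurka* and *Birc5*, a mitotic kinase and survivin, a subunit of the chromosomal passenger complex, were lower in each (*Aurka* −1.20 and −1.23, *Birc5* −1.20 and −1.23), as was *Lig1*, the replicative DNA ligase (−1.53 and −1.80). *Cks1b*, a Cdk subunit needed for the breakdown of p27, was lower in each as well, at 89.7 beside 199 in WT and at 107 beside 215. Among the other 6 KO comparisons, 1 of 120 examined values of the G2 and mitosis genes passed the rule, beside 7.21% of all examined values, and it was *Cenpf* in dKO cells on day 3 (−1.03).

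The Ink4 genes were the least abundant members in F1G4 WT cells. In WT cells *Cdkn2a* had an FPKM of 0.886 as ES cells and of 1.77, 1.59 and 1.38 thereafter, with a log2 ratio of 1.00 from ES cells to day 1, which lay under the rule before rounding. *Cdkn2b* stood at 1.13, 2.37, 2.07 and 4.17, past the rule from ES cells to day 1 (1.06) and from day 2 to day 3 (1.01). *Cdkn2c* never exceeded 0.629 in F1G4 WT cells. In WT cells of the *Smad4* line *Cdkn2b* was 4.74 on day 1 and 1.83 on day 2, so that its day 1 value was higher than in F1G4 cells by 1.05 on the log2 scale after scaling.

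*Cdkn2a* (4:89274471-89294653) and *Cdkn2b* (4:89306299-89311039) lie 11645 bp apart on the minus strand of chromosome 4 (mm10). *Cdkn2a* encodes p16Ink4a and p19Arf from separate first exons, and its single FPKM value pools both transcripts. The 100 bases from 150 to 51 bases before each start of the pair are shown to compare them (RefSeq, GRCm38.p6, minus strand), with capitals for the E2F motif TTTNNCGC.
Cdkn2a distal start (chr4:89294670-89294769): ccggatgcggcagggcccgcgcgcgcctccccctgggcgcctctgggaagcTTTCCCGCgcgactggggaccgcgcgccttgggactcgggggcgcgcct
Cdkn2a proximal start (chr4:89282243-89282342): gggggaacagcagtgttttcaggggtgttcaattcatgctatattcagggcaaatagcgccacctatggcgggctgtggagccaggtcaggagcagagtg
Cdkn2b (chr4:89311083-89311182): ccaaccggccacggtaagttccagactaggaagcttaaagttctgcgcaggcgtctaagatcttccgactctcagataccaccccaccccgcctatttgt
The distal stretch is 80% G and C with 16 CpG, the proximal one 55% with 2 CpG, and that of *Cdkn2b* 54% with 6 CpG. The E2F motif was found in 5.17% of all promoter windows, among them those of both *Cdkn2a* starts.

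**Figure D4:**
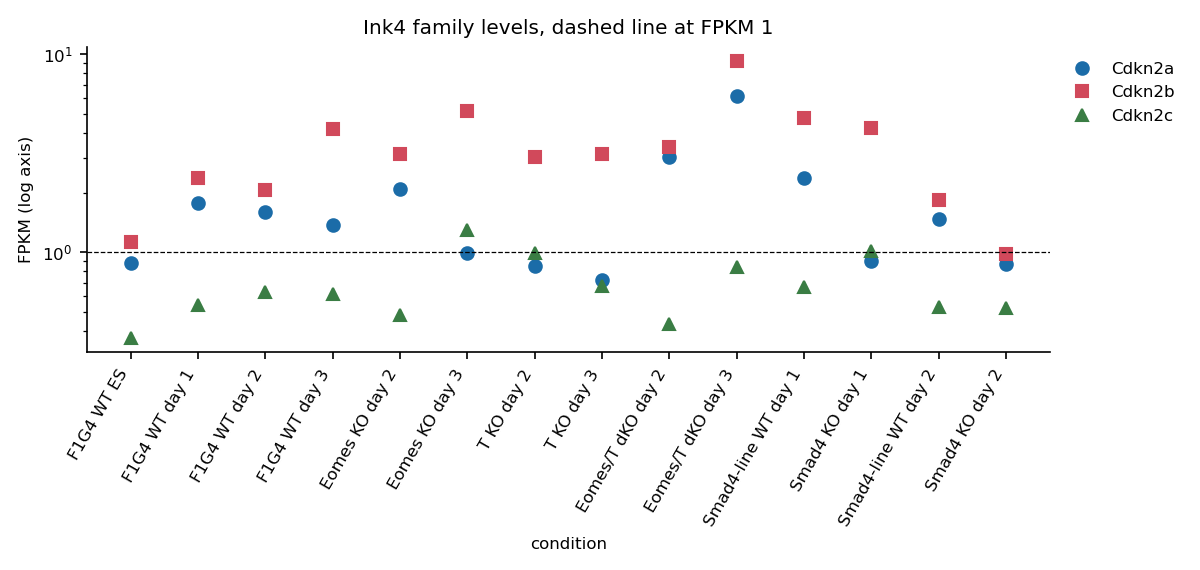
FPKM (log axis) of *Cdkn2a*, *Cdkn2b* and *Cdkn2c* in the 14 conditions, 1 pooled column per point, with a dashed line at FPKM 1. *Cdkn2a* (6.14) and *Cdkn2b* (9.22) are both highest in *Eomes*/*T* dKO cells on day 3, and *Cdkn2c* is above the line in 2 conditions.

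*Cdkn2a* and *Cdkn2b* passed the 2-fold rule as higher in dKO cells on day 3, 2 of 9 examined members beside 11.0% of all examined genes (5.51% higher). *Cdkn2a* was at 6.14 in dKO and 1.38 in WT cells (4.30-fold, with 1.56% of examined genes as high or higher), and *Cdkn2b* at 9.22 and 4.17 (1.09, with 4.73% as high or higher). On day 2, when 0 of 9 examined dKO members passed (7.99% of all examined genes), *Cdkn2a* was at 3.03 against 1.59 (0.94) and *Cdkn2b* at 3.39 against 2.07 (0.74). With the GC content and length trends removed, these day 2 ratios were 0.48 and 0.54. In FPKM as deposited, the dKO columns are the highest of the F1G4 columns for both genes, apart from *Cdkn2b* in WT and *Eomes* KO cells on day 3, which lay above the day 2 value of dKO cells.

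In the single KO lines *Cdkn2a* was not higher on day 3. It stood at 0.991 in *Eomes* KO (log2 ratio −0.53) and 0.725 in *T* KO cells (−0.94), and on day 2 at 2.09 (0.41) and 0.853 (−0.95). *Cdkn2b* was at 5.15 and 3.15 on day 3 (0.25 and −0.42) and at 3.12 and 3.01 on day 2 (0.61 and 0.51). No member passed the rule in *T* KO cells on day 3, 0 of 9 examined beside 6.04% of all examined genes.

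The dKO result was less firm for *Cdkn2b* than for *Cdkn2a*. The *Cdkn2b* ratio no longer passed with a pseudocount of 1 (0.94), as TPM (0.98) or with the GC content and length trends removed (0.92), and *Cdkn2a* passed in each case (1.93 with the trends removed). *Cdkn2a* has the shortest transcript of the 10 genes, with 895 bases, and *Cdkn2b* the next shortest, with 1390, and on day 3 the group of longest transcripts lay 0.28 below that of the shortest in the dKO column. Cell type markers moved in this column too. The nascent mesoderm markers summed to 23.0 in dKO and 446 in WT cells, with 7 of 7 lower and *Mesp1* at 0. They include the deleted *Eomes* and *T*, and *T* alone stood at 320 in WT. The neural markers summed to 39.5 and 27.5, with 3 of 4 examined higher. *Nes* gave 25.5 of the WT sum, while *Pax6* was at 4.03 in dKO beside 0.0488 in WT and *Sox1* at 6.49 beside 0.198. Past the rule in either direction were 11.0% of all examined genes. Embryonic fibroblasts, the former feeders, are known to express *Cdkn2a* and *Cdkn2b*. The summed FPKM of 12 fibroblast markers was 16.2 in dKO and 13.7 in WT cells, 0 of its 5 examined genes passed the rule and none was at 0. Over all conditions this sum ran from 2.89 to 13.7 in WT and from 9.68 to 24.0 in KO columns. The WT extremes were F1G4 ES cells and F1G4 cells on day 3, although feeders had been removed before differentiation. *Mmp2* rose from 1.03 to 5.86 between them, so the sum is not a measure of feeders alone. The highest sum was in *Eomes* KO cells on day 3, a column that stands apart, where 3 of 6 examined markers were higher. It stood beside a *Cdkn2a* value of 0.991 and a *Cdkn2b* value of 5.15, the next highest of this gene after dKO cells on day 3. The part of these cell types in the result was not tested.

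In *Smad4* KO cells *Cdkn2a* was lower on day 1, at 0.901 against 2.37 in WT (log2 ratio −1.39, with 1.25% of examined genes as low or lower), and stood at 0.872 against 1.47 on day 2 (−0.75). With a pseudocount of 1 the day 1 ratio was −0.83 and no longer passed. *Cdkn2b* stood at 4.24 against 4.74 on day 1 (−0.16) and at 0.977 against 1.83 on day 2 (−0.91). Fibroblast markers summed to 11.3 in KO and 11.6 in WT cells on day 1. *Cdkn2c* was above FPKM 1 only in *Smad4* KO cells on day 1 (1.02, log2 ratio 0.62) and *Eomes* KO cells on day 3 (1.30, log2 ratio 1.00, just under the rule).

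**Figure D5:**
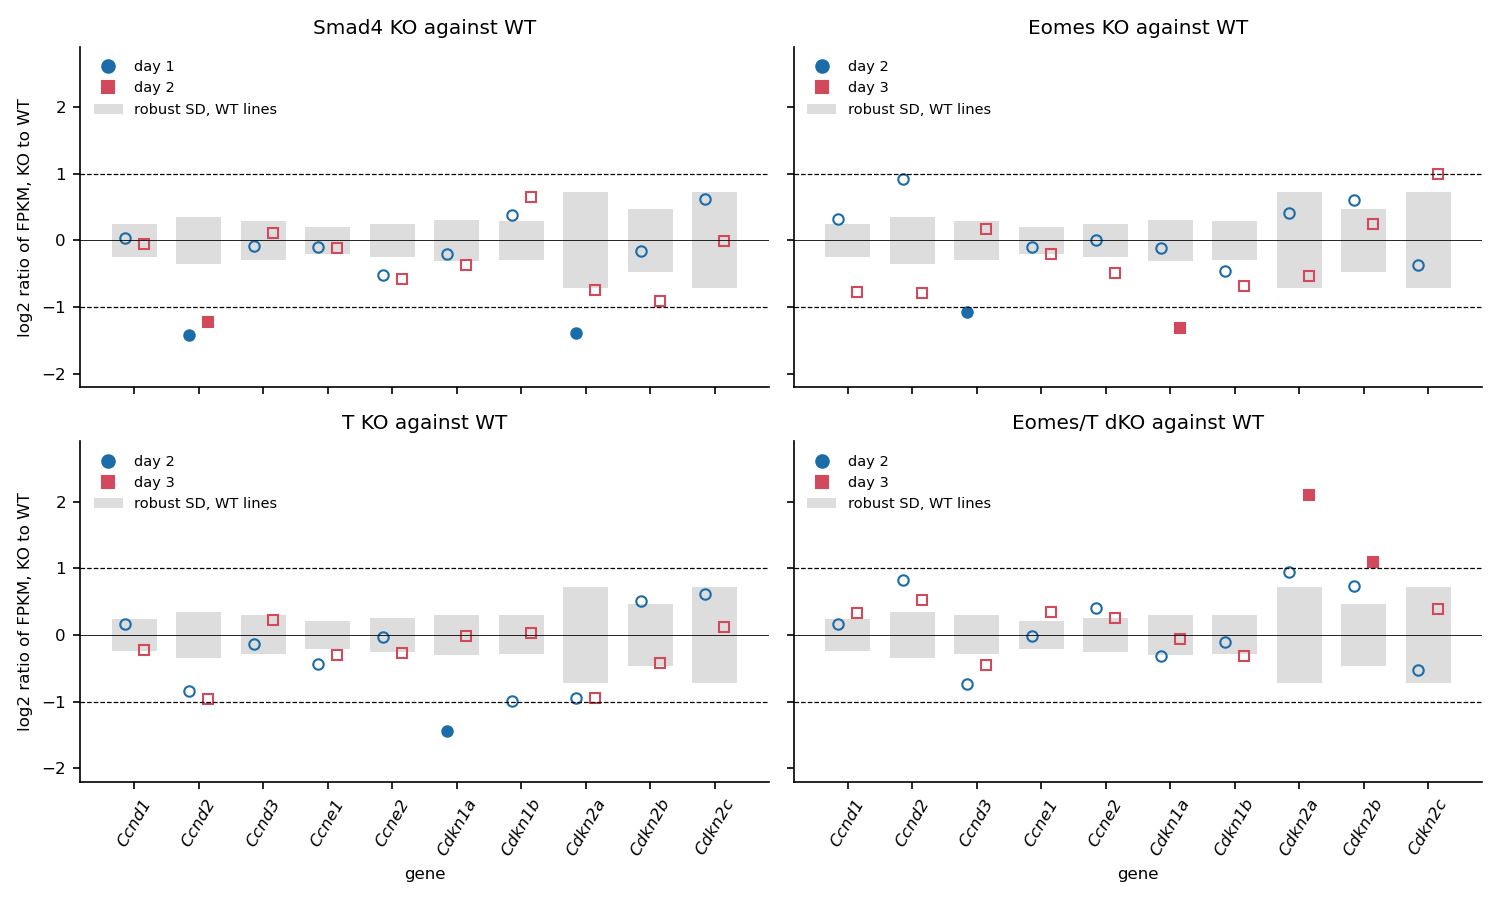
Log2 ratio of FPKM, KO to WT, of the 10 genes in 4 KO lines, with circles for the earlier and squares for the later day, filled where the gene passed the 2-fold rule (dashed lines at 1 and −1). Grey bars span 1 robust SD either way of the log2 ratio between both WT lines on day 2 among genes of like level, and 8 points are filled, 6 lower and 2 higher.

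Over the 8 KO comparisons, 8 of 74 examined member values passed the 2-fold rule, 6 as lower and 2 as higher. This is 10.8%, near the 9.45% of all examined values in the same comparisons. They belonged to 5 of the 10 genes, *Ccnd2*, *Ccnd3*, *Cdkn1a*, *Cdkn2a* and *Cdkn2b*. Without the day 3 column of the *Eomes* KO line and the day 2 column of the *T* KO line, the count was 6 of 55, beside 7.21% of all examined values. *Ccnd1*, *Ccne1*, *Ccne2*, *Cdkn1b* and *Cdkn2c* passed in none, although *Cdkn2c* in *Eomes* KO cells on day 3 did so under 4 alternatives (1.06 to 1.28).

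Beyond the 10 genes, 28 other regulators of G1 and S phase were followed. In WT cells, 2 of 27 examined were higher and 4 lower on day 3 than in ES cells, with a median log2 ratio of −0.30 (pseudocount 0.1) beside −0.02 over all examined genes, of which 18.5% were higher and 12.6% lower. The largest of these were *E2f2* (−2.17, at a low FPKM of 2.23 and then 0.496) and *Cdkn1c* (2.12). The latter is the third Cip/Kip gene, p57, with FPKM of 11.7, 21.7, 23.9 and 50.8 along the course. *Cdk4*, the partner of D-type cyclins, stood between 180 and 201 and *Cdk2*, the partner of cyclin E, between 18.3 and 30.8. In the 8 KO comparisons 4 of 207 examined values of this list passed the rule (1.93%, beside 9.45% of all examined values). They were *Cks1b* in both columns that stand apart, *E2f8* in dKO cells on day 2 (−1.01) and *E2f2* in *T* KO cells on day 3 (1.05). The last is a ratio at low FPKM, 1.04 beside 0.502 in WT.

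Of 26 E2F target and replication genes, 4 were lower and 0 higher on day 3 than in ES cells, a share near the 12.6% of all examined genes, with a median of −0.55, and the largest decreases were those of *Tk1* (−1.18), *Pole* (−1.16) and *Mcm10* (−1.08). The 20 genes of G2 and mitosis had a median of −0.27 and none passed. Of 19 examined p53 target genes, 7 were higher and 1 lower, beside 18.5% and 12.6% of all examined genes, with a median of 0.51. *Fas* (2.69, at a low FPKM of 0.272 and then 1.75), *Plk2* (1.64) and *Phlda3* (1.53) had the largest increases. The lower gene was *Trp53* itself, which had been listed with them (FPKM 102 in ES cells and 31.7 on day 3). *Mdm2*, a p53 target as well, had FPKM of 49.8 and 40.0.

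Of the 9 Myc family genes, 1 was higher and 3 were lower on day 3 than in ES cells, beside 18.5% and 12.6% of all examined genes. *Mycl*, which encodes L-Myc, had an FPKM of 1.99 in ES cells and 10.5 on day 3 (log2 ratio 2.40). *Mycn* fell from 129 to 24.5 (−2.39), *Myc* from 7.14 to 2.72 (−1.39) and *Mga*, a Max-binding repressor, from 47.3 to 20.9 (−1.18).

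Polycomb genes are known to silence the *Cdkn2a* locus. Of 12 examined, 4 were lower and 0 higher on day 3 than in ES cells, beside the 12.6% of all examined genes that were lower, with a median of −0.58. They were *Jarid2* (−2.46), *Mtf2* (−1.89) and *Eed* (−1.69), which belong to Polycomb repressive complex PRC2, and *Cbx7* (−1.04), of the other Polycomb complex. *Bmi1* (FPKM 2.32 in ES cells, 3.88 on day 3) and *Ezh2* (69.6 and 50.1) did not pass. In dKO cells on day 3, 1 of 12 passed, beside 11.0% of all examined genes. It was *Ezh1*, a PRC2 methyltransferase, at 2.55 beside 5.93 in WT (−1.22), and *Bmi1* stood at 6.85 beside 4.03 (0.76). Polycomb genes passed in other KO columns as well. In *T* KO cells on day 2, a column that stands apart, *Ezh2* was lower (−1.61), 1 of 12 examined beside 15.6% of all examined genes. *Cdkn2a* did not pass there (−0.95). In *Smad4* KO cells on day 1 *Cbx8* was lower (−1.19, FPKM 0.721 beside 1.64 in WT), 1 of 13 examined beside 4.77% of all examined genes. *Bmi1* ratios were 0.50 to 0.82 in the other F1G4 KO columns, except *T* KO on day 3 (−0.48). A relation to *Cdkn2a* was not tested.

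Across the 14 conditions, the members most alike in log2(FPKM + 0.1) were *Ccnd2* and *Ccne2* (Pearson r = 0.84), and the most opposed were *Ccne1* and *Cdkn1a* (r = −0.65). Among 10854 other genes, *Ccne1* was most like 1810009A15Rik (r = 0.98), *Mrps18b* (0.97) and *Rpp25* (0.97), and *Cdkn1a* most like *Cited1* (0.95), *Plpp2* (0.94) and *Wwc2* (0.93). *Cdkn1b* was most like *Iqcb1* and *Galc* (0.94 each) and *Ccnd2* most like *Kbtbd3* (0.92) and *Hmgn2* (0.90). The conditions share cell lines and days, and these r values describe 14 points and carry no test.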

How the data were processed

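Only RNA-seq was used, and ChIP and ATAC samples were not used here. Strand-specific ScriptSeq libraries were sequenced paired-end. The authors trimmed reads with cutadapt 2.9, aligned them with Hisat2 2.1.0 to mm10 with refSeq, and computed the deposited FPKM with Cuffdiff 2.2.1 with multi-read and bias correction and no effective length correction. The depth is unknown, and each condition is 1 pooled column. The same F1G4 WT columns differ between tables by a constant factor, so the FPKM also carry a scaling between the columns of a table. The legends describe averages of 2 replicates while labels give 1 sample per KO line and day, so how many samples a KO column holds is unclear.

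Columns were assigned to groups by name. The assumed design had no test, and none was possible: no SD or p-value was computed. A gene was examined at FPKM above 1 in either column and called past a log2 ratio of 1 in size. Ratios were taken within a table. F1G4 WT columns of the KO tables are multiples (0.989 to 1.04) of the time-course columns. The F1G4 WT levels printed for the 10 members and the marker sums are time-course values. Those of other genes come from the KO table where they stand beside a KO value of the same gene, and otherwise from the time course. List medians used a pseudocount of 0.1. GC content and length trends were removed by subtracting the median ratio of 20 equal groups of protein-coding genes for each. Named genes were the 10 members, up to 3 list genes with the largest called ratios per list and comparison, and the 3 genes most like a member. *Cdk2*, *Cdk4*, *Cdkn1c* by stage, *Ube2c*, *Mga*, *Cbx7*, *Mdm2*, *Trp53*, *Bmi1* and *Ezh2* were chosen outside this rule. The members and lists were chosen with earlier results of these data known. Positions come from GENCODE vM21 and promoters from RefSeq (GRCm38.p6), and the alternatives are given in the closing section. The fold rule and the trend removal were tested on simulated data. Software was Python 3.11.15 with pandas 2.3.3, numpy 2.4.6 and matplotlib 3.10.9.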

Additional observations from a re-analysis of the deposited data

Results flagged for a closer look

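*Ccnd2* drew attention because the same KO moved it in opposite directions on the 2 days. In *Eomes* KO cells its log2 ratio to F1G4 WT was 0.92 on day 2 and −0.79 on day 3, each over 0.5 in size and each under the 2-fold rule. The difference between the days was not tested, since each day is a single pooled column, and the day 3 column is one of those whose ratios spread most widely over all genes.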

How the results depend on the processing

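No result has a replicate check. No paired analysis was possible because the columns carry no replicates, and leaving out replicates was not run for the same reason. Of 660 log2 ratios of members recomputed under the alternatives, 16 moved by more than the robust SD between WT lines at like level, and no called ratio reversed. Of 111 counts, 77 stayed within 1.5 times the main count.

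With a pseudocount of 1 the number of members past the rule was 1 from ES cells to day 1, 0 from day 2 to day 3, 0 for *Smad4* KO on day 1 and on day 2, 0 for *Eomes* KO on day 2, 1 for dKO on day 3 and 3 over the 8 KO comparisons. With a pseudocount of 0.1 it was 0 from day 2 to day 3. With FPKM above 5 it was 1 from ES cells to day 1, 0 from day 2 to day 3 and 0 for *Smad4* KO on day 1. At 1.5-fold it was 5, 4 and 3 for the successive WT steps and 7 from ES cells to day 3, 4 for *Smad4* KO on day 2, 3 and 5 for *Eomes* KO, 4 and 2 for *T* KO on days 2 and 3, 4 for dKO on day 2 and 27 over the 8 KO comparisons. As TPM it was 2 for *Eomes* KO on day 3, 1 for *T* KO on day 3 and 1 for dKO on each day. Scaling to a median ratio of 1 gave 2 for *Eomes* KO on day 3, as did the WT column of the time course. With GC content and length trends removed, an alternative chosen after seeing the data, it was 0 from day 2 to day 3, 2 for *Eomes* KO on each day, 2 for *T* KO on day 2 and 1 for dKO on each day. The cause of these shifts was not tested. Under the alternatives the share of all examined genes was not computed, so these member counts cannot be set beside it.

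Ratios just past or just under the rule account for most changed calls, among them *Cdkn2c* in *Eomes* KO cells on day 3, and *Cdkn2b* from day 2 to day 3 and in dKO cells on day 3. *Ccnd2* in *Smad4* KO cells lay further past the rule (−1.42 and −1.22) at low FPKM (0.979 and 2.78), and did not pass with a pseudocount of 1. Low values of the Ink4 genes are sensitive to any pseudocount. Shares moved by under 5 percentage points in all 140 cases. Of the genes named as most like a member, 1810009A15Rik and *Galc* stayed among the 3 most alike without the *Smad4* line columns, and the others did not.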
